A study of Homo sapiens with 4 samples.

Results

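TNFRSF10A, TNFRSF10B, TNFRSF10C and TNFRSF10D, the receptors of the death ligand TRAIL, were examined together with the death receptor FAS, caspase-8 (CASP8), its inhibitor c-FLIP (CFLAR) and the survival proteins BCL2L1 and MCL1. The genes were taken by symbol from the authors' deposited table of YTHDF1 binding windows, and these 9 genes are among the 7550 genes that the table lists. RNA immunoprecipitation sequencing (RIP-seq), in which RNA pulled down with a protein is sequenced beside the RNA of the whole lysate, was performed in SNU638, a human gastric cancer cell line. All 4 libraries came from cells that overexpressed YTHDF1, a reader protein of N6-methyladenosine (m6A) in mRNA, and that spent 24 h without serum before 24 h of interferon-γ (IFN-γ) at 10 ng/ml. The groups were IP-YTHDF1, the RNA recovered with the protein, and Input, with 2 biological replicates each. The study's methods name an antibody to FLAG, so the recovered RNA was that of the overexpressed tagged protein in 1 cell line. All groups shared the overexpression and the IFN-γ, so the values describe binding in treated cells and no response to the treatment.

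The table gives 1 signal value, 1 p-value and 1 q-value per 50 bp window for IP-YTHDF1 against input, and no value per library. The paper describes its protein-coding peaks as a union over the replicates, so a listed window may rest on 1 replicate. The depth of each library is unknown, a spread between replicates could not be given, and no difference between genes could be tested. The signal value has no stated scale, so differences, means, sums and distances between signal values are in the authors' units and cannot be read as fold changes or amounts of bound RNA. Its median over all 26819 distinct windows was 1.84, its 25th and 75th percentiles were 1.54 and 2.19, and its extremes were 0.70 and 9.46. The listed windows had passed a q limit of 0.05, and a gene without one may be unbound, poorly expressed or too thinly covered, which the table cannot tell apart.

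TRAIL and FAS ligand start the extrinsic pathway of apoptosis. TRAIL-R1 (TNFRSF10A) and TRAIL-R2 (TNFRSF10B) carry a cytoplasmic death domain that recruits the adaptor FADD and caspase-8. TRAIL-R3 (TNFRSF10C) is held in the membrane by a lipid anchor and has no death domain, and TRAIL-R4 (TNFRSF10D) has a truncated one, so both bind TRAIL without passing on the death signal and are called decoy receptors. c-FLIP resembles caspase-8 and blocks its activation at the receptor. BCL-XL, the main product of BCL2L1, and MCL1 hold back BAX and BAK at the mitochondrion, where the extrinsic and intrinsic pathways meet. IFN-γ is known to sensitise many tumour cells to these ligands.

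All 9 genes had at least 1 listed window. Over the genome, a window was listed for 31.8% of 20056 RefSeq protein-coding genes, a base that includes genes silent in these cells. The genes were chosen with results of this table known, so the count is a description. Together they held 48 windows, which formed 27 separate regions when touching windows were joined. TNFRSF10B, CFLAR, BCL2L1 and MCL1 each had 9 listed windows, the most listed for any gene, and 12.8% of the table's protein-coding genes had as many. Ordered by the strongest listed window, CASP8 came first with a signal value of 3.13, followed by BCL2L1 with 2.67, FAS with 2.58, TNFRSF10D with 2.47 and CFLAR with 2.23. TNFRSF10C with 1.92, TNFRSF10A with 1.84, TNFRSF10B with 1.67 and MCL1 with 1.63 formed the lower end. The median of these 9 strongest values was 2.23, and the median over all 6679 listed protein-coding genes was also 2.23. A signal value of at least 2 was reached in 5 of the 9 genes, against 22.0% of all protein-coding genes and 69.4% of the 6370 listed ones. All 9 genes are listed, so the second share is the like base, and 5 of 9 does not exceed it. TNFRSF10D was the only TRAIL receptor among the 5. Neighbours in this order stood 0.04 to 0.46 apart, and without values per replicate it cannot be said which of these steps exceed the error.

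**Figure D1:**
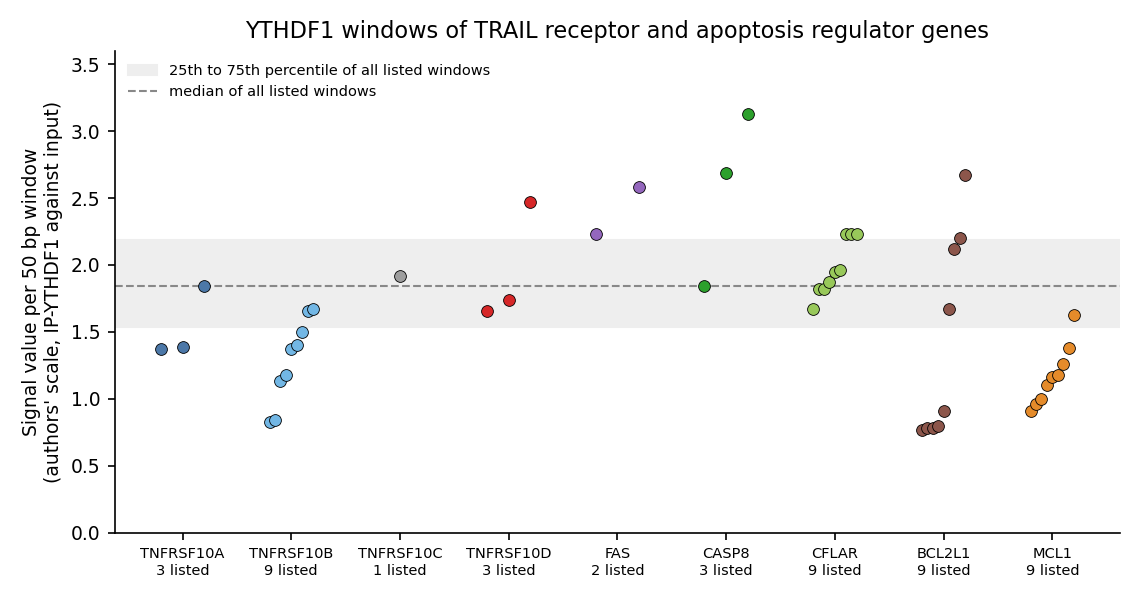
Signal value of each listed 50 bp window (points) in the 9 genes, on the authors' scale for IP-YTHDF1 against input, with the median (1.84, dashed) and the 25th to 75th percentile (1.54 to 2.19, grey) of all listed windows. TNFRSF10D reached 2.47, above the highest listed windows of TNFRSF10A (1.84) and TNFRSF10B (1.67). CASP8 held the highest value of the set (3.13), and BCL2L1 fell into a group from 1.67 to 2.67 and a group below 1.

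Sequence could be shown for 1 of the 48 windows. The first CFLAR window, at the start of a RefSeq transcript, lay inside the start-site sequences of RefSeq (GRCh38.p14), and it is printed because it was tied for the strongest signal value of that gene. It contained GGAC once, a common core of the m6A consensus motif DRACH (H stands for A, C or U), and no GGACT. Only the gene's own strand was searched. The base after GGAC was G, so the printed GGAC is not a full match to DRACH. Capitals mark GGAC, read on the plus strand of chr2:201118713-201118742, which is the coding strand. GGAC was present in the corresponding 50 bases of 18.4% of 35116 start-site entries and GGACT in 4.75%, so a match is a description of these letters and not of a methylated site.
CFLAR: ggcagaggttctcGGACgccctccggcgaa

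The 4 TRAIL receptor genes lie side by side within 204970 bp of chromosome 8 (23020133 to 23225102, GRCh38), in the order TNFRSF10B, TNFRSF10C, TNFRSF10D, TNFRSF10A. TNFRSF10C is on the plus strand and the others are on the minus strand. The gaps between neighbours were 33889, 18142 and 26424 bp, and the family arose by duplication. How reads that match several copies were handled is not given in the sources used here, so the assignment of reads between receptors is uncertain. The 4 genes held 16 of the 48 windows.

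TNFRSF10D (ENSG00000173530), the decoy with the truncated death domain, had 3 separate windows. The first, at 23145739 to 23145788, reached a signal value of 2.47 at a deposited p-value of 1.33e-07 (q-value 3.32e-06). The next, at 23144539 to 23144588, had 1.74 with a q-value of 0.01258, and the window at 23137789 to 23137838 had 1.66 with a q-value of 0.01338. The strongest window exceeded 86.9% of all listed windows, and the other two exceeded 40.4% and 33.9%. Its strongest value exceeded that of 74.7% of the 855 protein-coding genes that also had 3 listed windows, whose median was 2.19. Of its 3 windows, 1 had a signal value above every listed window of TNFRSF10A and TNFRSF10B, and the others lay within their listed range.

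TNFRSF10A (ENSG00000104689), which encodes a signalling receptor, also had 3 windows. The strongest, at 23191853 to 23191902, reached a signal value of 1.84 at a p-value of 1.79e-09 (q-value 7.17e-08). The others were adjacent, at 23224803 to 23224902, with signal values of 1.39 and 1.37 and a shared q-value of 0.001586. This pair began 200 bases from the 5′ end of the gene and overlapped a listed window of AC100861.1, a lncRNA gene on the opposite strand, with a signal value of 1.64. The libraries were strand-specific, but whether windows were counted by strand is not given in the sources used here. The strongest TNFRSF10A value exceeded 16.8% of the genes with 3 listed windows.

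TNFRSF10B (ENSG00000120889), the other signalling receptor, had 9 listed windows, all of them low. Their signal values ran from 0.83 to 1.67 with a median of 1.37, and none exceeded the median of all listed windows. The windows with the lowest p-values were adjacent, at 23022784 to 23022883. They had signal values of 1.66 and 1.5 with p-values of 3.49e-10 and 8.88e-09. The window with the highest signal value, 1.67, lay at 23030784 to 23030833 and had a p-value of 7.80e-05. Among the 854 protein-coding genes with 9 listed windows the median strongest value was 2.48, and 4.10% of them were below TNFRSF10B.

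TNFRSF10C (ENSG00000173535), the decoy without a death domain, had 1 window, at 23114691 to 23114740, whose signal value was 1.92 (q-value 0.001508). It overlapped, on the same strand, a window of the gene AC107959.5 at 23114704 to 23114753 whose signal value was 2.48 (q-value 7.39e-06). Whether reads of the shared stretch were counted for both genes was not tested. TNFRSF10C was the only one of the 9 genes with such a same-strand overlap, which touched 11.1% of all listed windows, and no window of it was left when shared windows were removed.

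**Figure D2:**
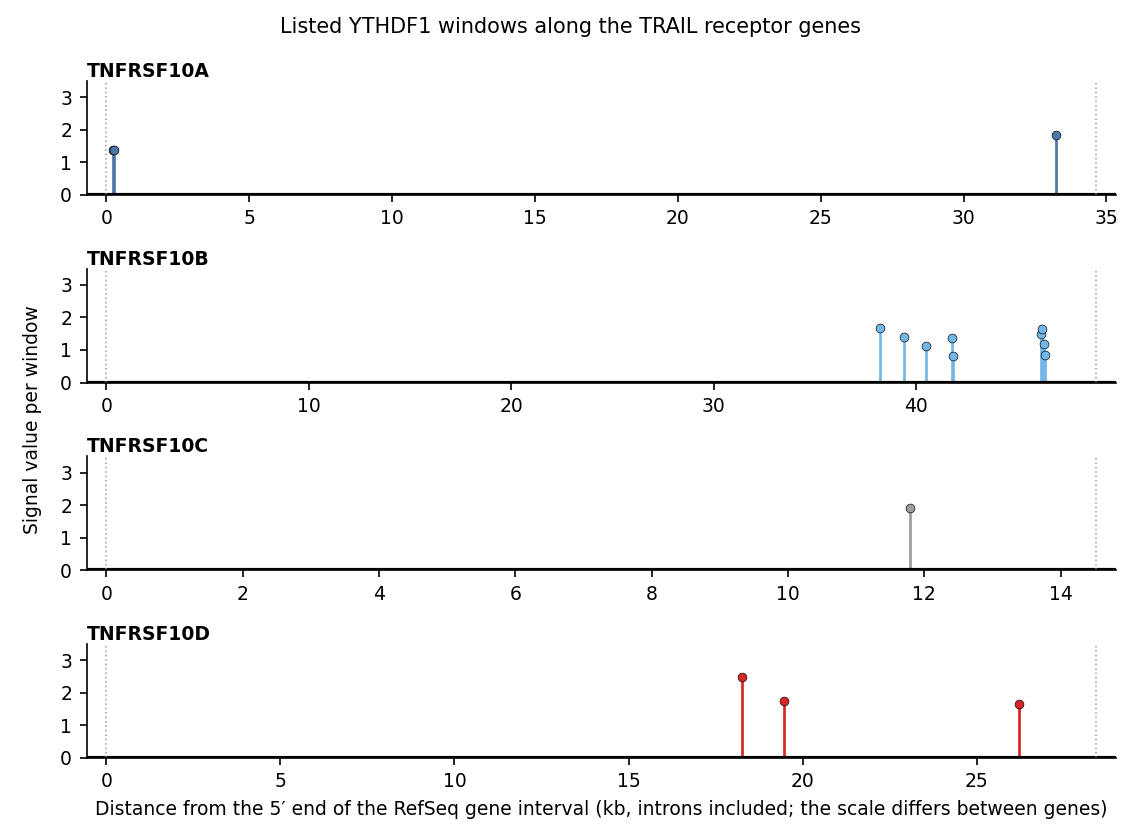
Signal value (vertical axis) of each listed window against its distance in kb from the 5′ end of the RefSeq gene interval, introns included, in the 4 TRAIL receptor genes; dotted lines mark both ends of each gene and the horizontal scale differs between genes. Each receptor had a listed window 1401 to 2705 bases from its 3′ end, whereas the strongest TNFRSF10D window lay 10151 bases from that end.

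The comparison of TNFRSF10D with its signalling paralogues depended on the measure. By signal value, its strongest window was above that of TNFRSF10A by 0.63 and above that of TNFRSF10B by 0.80. Compared by the median of the listed windows, the differences were 0.35 and 0.37. Compared by p-value the order was the opposite, since the lowest p-value was 1.33e-07 in TNFRSF10D, 1.79e-09 in TNFRSF10A and 3.49e-10 in TNFRSF10B. The sum of signal values was also lower in TNFRSF10D (5.87) than in TNFRSF10B (11.58), which had 3 times as many listed windows. Of the 3 genes, TNFRSF10D thus had the highest listed signal value and the least extreme lowest p-value. At the shared signal value of 1.66, a window of TNFRSF10B had a p-value of 3.49e-10 and a window of TNFRSF10D one of 0.001605. None of these differences could be tested, because each gene has 1 value per window and none per library.

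A common base for these counts is the number of windows tested in each gene, taken as the smallest number that fits its q-values, which were adjusted within each gene. TNFRSF10D had 3 windows listed of 25 tested (12%, Wilson 95% interval 4.17% to 29.96%), and TNFRSF10A had 3 of 40 (7.50%, interval 2.58% to 19.9%). For TNFRSF10B the listed windows were 9 of 93 (9.68%, interval 5.18% to 17.4%), and for TNFRSF10C the count was 1 of 27 (3.70%, interval 0.657% to 18.3%). The TNFRSF10C number assumes that its only listed window had the lowest p-value of the gene. Across all listed protein-coding genes the share was 8.32%, a value held down, as is that of TNFRSF10B, because at most 9 windows were listed for a gene. The intervals overlap, but they cover counting error only and neighbouring windows are not independent, so the overlap is no test. A difference between the receptors in this share was not tested.

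In TNFRSF10B the list was not complete. The deposited p-value and q-value of a window together tell how many windows of that gene had a p-value as low, so a gap in this numbering shows that a window passed without being listed. The 9 listed windows of TNFRSF10B reached position 11 of 93, so at least 2 windows that passed are missing, and at least 1 of them had a p-value between 8.88e-09 and 2.10e-05. Their signal values are unknown, so 1.67 is the strongest listed value of this gene and may not be its strongest value. With the smallest fitting number of tested windows, no position was skipped in TNFRSF10A or TNFRSF10D. In any gene a multiple of that number would fit as well, with regular gaps that this count cannot show. A gene with 1 listed window, such as TNFRSF10C, is always placed at position 1, so it cannot show a skip. Skipped positions occurred in 695 of 897 genes with 9 listed windows (77.5%) and in 5 of 6600 genes with fewer (0.0758%). The second group includes the genes with 1 listed window, which could not show one.

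Position within the gene also differed between the receptors. Each of the 4 had a listed window within 2705 bases of its 3′ end. The distance was 1401 bases in TNFRSF10A, 2501 in TNFRSF10B, 2705 in TNFRSF10C and 2201 in TNFRSF10D, counted along the genome with introns included. The signal values of these windows were 1.84, 0.84, 1.92 and 1.66. They lay 95.9%, 94.8%, 81.2% and 92.2% along their genes, and that of TNFRSF10C was the one shared with AC107959.5. The distance was not particular to the receptors, since MCL1 had a window 2594 bases from its 3′ end, 48.2% along the gene. TNFRSF10D had no listed window within the first 18239 bases of the gene, and TNFRSF10B none within the first 38198. Among the 4, TNFRSF10A alone had listed windows near its 5′ end, although the places of the windows missing from the TNFRSF10B list are unknown. These TNFRSF10A windows were the pair that overlapped AC100861.1 on the opposite strand. Without windows shared on either strand, 1 window of TNFRSF10A was left, the one near its 3′ end. The positions were not assigned to exons or untranslated regions here.

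FAS (ENSG00000026103, plus strand of chromosome 10), the receptor of FAS ligand, had 2 windows. The window at 89003132 to 89003181 reached 2.58 (q-value 4.40e-06), and that at 89007732 to 89007781 reached 2.23 (q-value 0.000255). They were 2 of only 10 windows tested in this gene (20%, Wilson 95% interval 5.67% to 51.0%). Both FAS windows had signal values above the strongest listed windows of the signalling TRAIL receptors. The strongest FAS value exceeded that of 82.6% of genes with 2 listed windows.

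CASP8 (ENSG00000064012, plus strand of chromosome 2), the initiator caspase recruited by both receptor systems, had the strongest window of the set. Its 3 windows were adjacent and formed a single block of 150 bp from 201266594 to 201266743. Their signal values in order of position were 1.84, 3.13 and 2.69, so the middle window was the peak of the block. The middle window had a p-value listed as 0, as had 508 windows of the table, and the others had q-values of 0.000118 and 2.53e-08. The strongest value exceeded that of 93.9% of all listed protein-coding genes. Of 29 windows tested in CASP8, these 3 held the first positions without a gap.

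CFLAR (ENSG00000003402) lies 56775 bp away on the same strand of chromosome 2, and its pattern was spread out. Its 9 windows fell into 4 regions between 201118705 and 201136454, all within the 5′ part of the gene, with no listed window in the last 40233 bases. The signal values were even, from 1.67 to 2.23 with a median of 1.95. The value 2.23 occurred in 3 of these windows, 1 of them the window whose sequence is shown above, and in 166 windows of the table. The q-values ran from 4.24e-05 to 0.00994. Although CFLAR had 9 listed windows, no position was skipped among its 102 tested windows.

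BCL2L1 (ENSG00000171552, minus strand of chromosome 20), which encodes BCL-XL, had 9 listed windows within 800 bp near the 5′ end of a gene of 59512 bp. By signal value they formed a strong and a weak group. The 4 adjacent windows from 31722303 to 31722502 had signal values of 2.12, 2.67, 1.67 and 2.20 in order of coordinate, and the strongest of them had a q-value of 9.58e-13. The other 5, between 31721703 and 31722102, had signal values from 0.77 to 0.91 and q-values from 0.007209 to 0.02105. The window at 1.67 in the strong group had a q-value of 0.01845, within that range. The windows of the weak group lay at the bottom of the table, since at most 1.19% of all listed windows were below them. At least 1 further window passed and is not listed, because the highest position was 10 of 75.

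MCL1 (ENSG00000143384, minus strand of chromosome 1), a short-lived survival protein, had 9 listed windows with the lowest strongest value of the set. Its signal values lay between 0.91 and 1.63 (median 1.16). The strongest window, at 150578402 to 150578451, had a p-value of 1.32e-09. It exceeded 30.2% of all listed windows. MCL1 was also the gene with the most windows missing from the list. Its listed windows occupied positions 4 to 17 of 64, so at least 17 of 64 windows passed (26.6%), and 3 windows that are not listed had lower p-values than any listed one. The values given here therefore describe part of the MCL1 binding pattern, and its low place in the order of strongest listed values is uncertain.

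**Figure D3:**
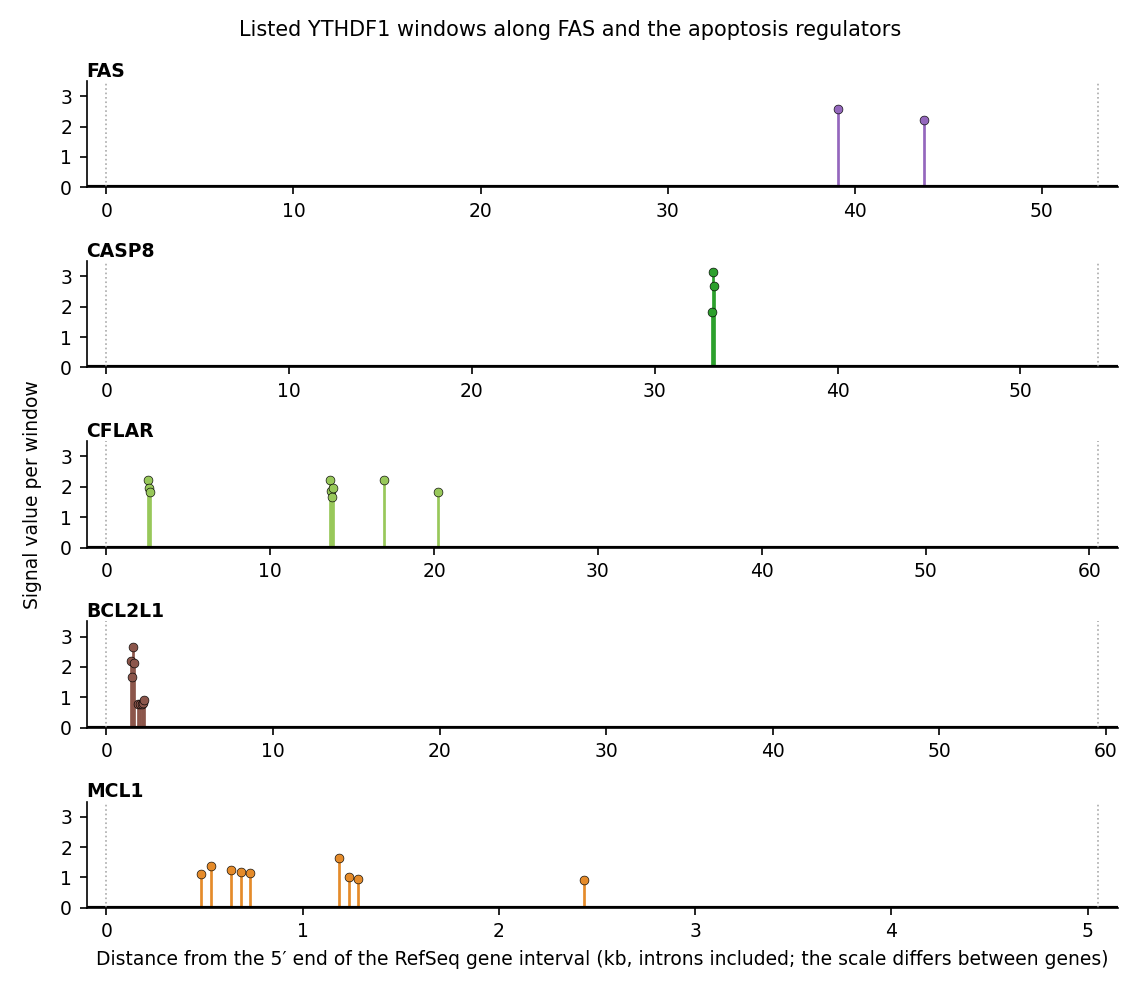
Signal value (vertical axis) of each listed window against its distance in kb from the 5′ end of the RefSeq gene interval, introns included, for FAS, CASP8, CFLAR, BCL2L1 and MCL1; dotted lines mark both ends of each gene and the horizontal scale differs between genes. CASP8 had 1 block of 3 windows, CFLAR 4 regions in its 5′ part, and BCL2L1 all 9 listed windows within 800 bp.

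Signal value and p-value did not order the windows alike. MCL1 reached a p-value of 1.32e-09 at a signal value of 1.63 and TNFRSF10B one of 3.49e-10 at 1.66, whereas the FAS window at 2.58 had a p-value of 4.40e-07. At the shared signal value of 2.23, the p-values of the 3 CFLAR windows and the FAS window ran from 7.86e-07 to 5.10e-05. The read counts behind the windows are not part of the table, so the part of coverage in these differences was not tested. With a Bonferroni limit of 0.05 over all 320602 windows counted, 6 of the 9 genes had a window left, against 12.5% of all protein-coding genes and 39.2% of the listed ones. FAS, CFLAR and TNFRSF10C had none left, although FAS and CFLAR ranked above both signalling receptors by signal value. Under a q limit of 0.001, 8 of the 9 genes had a window, against 21.2% of all protein-coding genes and 66.7% of the listed ones.

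**Figure D4:**
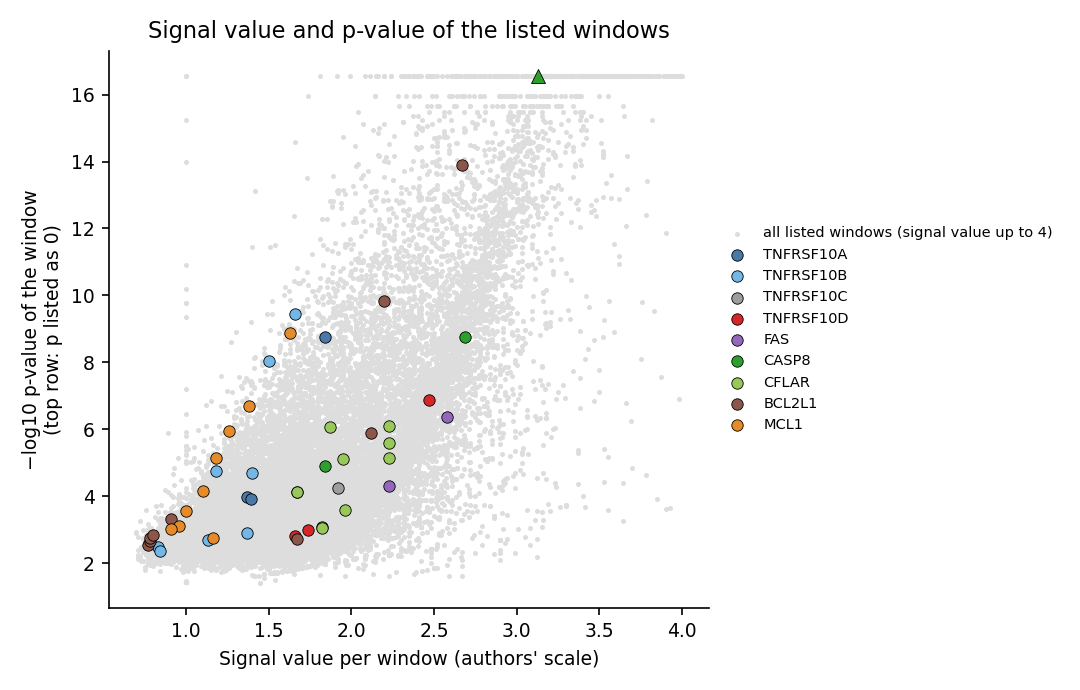
Signal value (horizontal axis) against −log10 of the authors' p-value (vertical axis) for the windows of the 9 genes (coloured) and all listed windows with a signal value up to 4 (grey); the top row and the triangle hold p-values listed as 0. At a signal value of 1.66, the TNFRSF10B window (3.49e-10) lay far above the TNFRSF10D window (0.001605), so the axes do not order the windows alike.

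The 3 genes most like TNFRSF10D, by Euclidean distance between the sorted signal values of the 854 other protein-coding genes with 3 listed windows, were AP1G1 (distance 0.0583), PARP6 (0.0616) and WDR45 (0.0663). For scale, the strongest listed window was 2.37 in IRF1, the transcription factor that the study followed, and 1.92 in YTHDF1.

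Among 48 other genes of the apoptosis pathways, 22 had a listed window (45.8%, against 31.8% of all protein-coding genes). The list was also chosen with results of these data known, and its share is given as a description. None of the 4 ligands TNFSF10 (TRAIL), FASLG, TNF and LTA was listed. Of 5 other death receptors and decoys, TNFRSF1A, TNFRSF25 and TNFRSF21 were listed with strongest values of 1.59, 2.00 and 1.72, and the soluble decoys TNFRSF6B and TNFRSF11B were not. All but CRADD of the 5 adaptors and kinases were listed. TRADD, the adaptor of the TNF receptor, had 2.69, RIPK1 had 1.98 and DAXX had 1.81. FADD, which links the TRAIL receptors and FAS to caspase-8, had 3 windows with a strongest value of 0.99, and 0.150% of listed protein-coding genes were lower.

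Of 4 other caspases, CASP9, the initiator of the intrinsic pathway, had 1 window at 1.97 and CASP2 had 2 with a strongest value of 1.74. CASP6 and CASP10 had none. Of the other survival proteins of the BCL2 family, BCL2 (2.20) and BCL2L2 (1.68) were listed and BCL2A1 and BCL2L10 were not. The pore-forming group held the strongest window of the list, 3.57 in BOK, beside 2.57 in BAK1, and BAX was not listed. Of 8 BH3-only genes, which trigger that group, PMAIP1 (2.42), BBC3 (2.19) and BID (1.79) were listed, and BCL2L11, BAD, BIK, BMF and HRK were not.

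Of 6 genes of mitochondrial release and the apoptosome, ENDOG (2.43) and DIABLO (1.48) were listed, whereas APAF1, CYCS, HTRA2 and AIFM1 were not. The inhibitors of apoptosis, which bind caspases or mark proteins for degradation, had 3 of 7 listed, with 2.80 in BIRC6, 2.69 in BIRC2 and 1.19 in BIRC5. XIAP, BIRC3, BIRC7 and NAIP were not listed. DFFA, the inhibitor of the apoptotic nuclease, had a strongest value of 1.84, and DFFB, the nuclease, was not listed. The median strongest value of the 22 listed genes was 1.98, below the 2.23 of the 9 genes above and of all listed protein-coding genes.

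**Figure D5:**
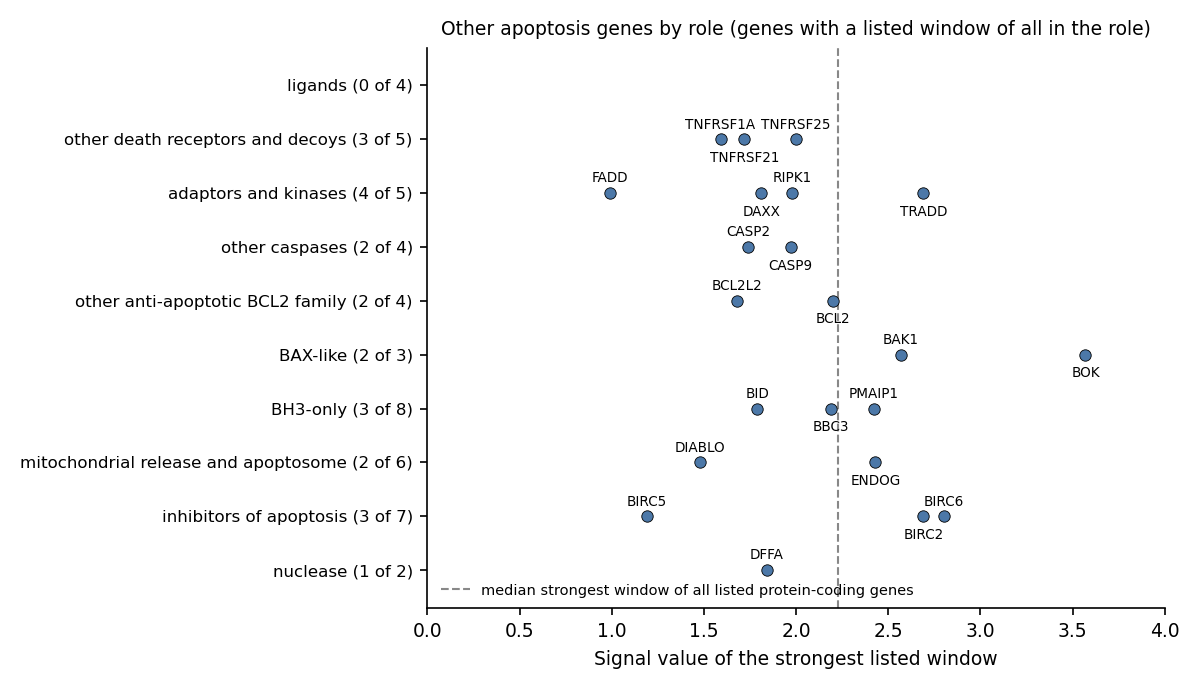
Signal value of the strongest listed window (horizontal axis) for the 22 of 48 other apoptosis genes that had one, by role (rows, with the listed and the total number of genes); the dashed line is the median strongest window of all listed protein-coding genes (2.23). BOK had the highest value (3.57) and FADD the lowest (0.99), and no ligand was listed.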

How the data were processed

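RIP-seq libraries of IP-YTHDF1 and input (2 each) were made with a RIP kit and a strand-specific ribosomal-depletion kit. The submitters' processing notes name STAR 2.7.3a and GRCh38, and the peak caller is not given in the sources used here. The authors deposited 1 table with a signal value and a rank (both treated as a score of unstated scale), a p-value and a q-value per window, without values per library (0 such columns were left unused). Counts per library were not part of it, so the planned count model was not run. Of 26820 rows, 1 repeat was dropped.

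For each gene the count of tested windows was taken as the smallest that made the positions p × number / q whole within the rounding of the deposited p-values and q-values, leaving out p-values up to 1e-14. It was found for 7497 genes. The procedure was tested on simulated data.

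Symbols were matched to RefSeq (GRCh38.p14) for 6370 of 6674 protein-coding symbols, and all 48 windows lay inside the RefSeq interval of their gene. Positions count from 1. The 9 genes, the 48 pathway genes and the comparisons were chosen with earlier results of these data known. All 9 genes and all 48 pathway genes are named, other genes of the first pathway list are not reported here, and the genes most like TNFRSF10D follow a fixed distance rule. Stricter q-values, signal values, adjustment over all windows, shared windows and joined windows were tried as alternatives. The work was done in Python (3.11.15) with NumPy (2.4.6) and pandas (2.3.3), intervals were from SciPy (1.17.1), and figures were drawn with matplotlib (3.10.9).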

Additional observations from a re-analysis of the deposited data

How the results depend on the processing

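No paired analysis was possible because each window has 1 deposited value, which is not labelled with a replicate. For the same reason leaving out each replicate was not run. A q limit of 0.001 left 24 of the 48 windows and 14 of the 22 listed pathway genes, against 66.7% of all 6370 listed protein-coding genes. A signal value of at least 2 left 5 of the 9 genes, 11 windows and 10 pathway genes, against 69.4% of the listed genes. Of all listed windows, 58.9% lay below 1.96 and 70.6% below 2.12. The shares of all windows at the other limits are not given here. A Bonferroni limit over all windows counted left 9 windows and 9 pathway genes, against 39.2% of the listed genes. Joining touching windows gave 27 regions. These losses follow from the stricter limits or from the joining itself. Adjusting over all windows counted by Benjamini-Hochberg left all 9 genes and 47 windows, against 98.3% of all listed protein-coding genes. Removing windows shared on the same strand left 8 genes and 47 windows, against 94.8% of the listed genes. Removing windows shared on either strand, chosen after the data were seen, left 8 genes and 45 windows, against 94.5% of the listed genes. The counts of genes left are therefore near what listed genes gave in general.

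The difference of TNFRSF10D from TNFRSF10A was 0.35 for the median, 0.42 for the mean and 1.27 for the sum of listed windows. Under the q limit of 0.001 and without shared windows it was 0.63 as before. Those limits removed the strongest window of neither gene, so they could not change it. The difference from TNFRSF10B was 0.37 for the median, 0.67 for the mean and 0.81 under the q limit of 0.001, and it reversed to -5.71 for the sum, which counts 9 windows against 3. The unlisted windows of TNFRSF10B could change each of these values.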
